A study of Mus musculus with 4 samples.

Results

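Axon guidance ligands and receptors were examined in cells sorted from the lower incisor of mice that lacked or kept Ptip. The members are all protein-coding genes of the semaphorin, plexin, neuropilin, Slit, Robo, netrin, Unc5, ephrin and Eph families, with Dcc, matched by gene symbol. There were 69 of them among the 55487 genes of the deposited count table: 35 ligands and 34 receptors. Of these, 62 had enough counts to be tested.

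The libraries came from lower incisors of mice of the C57 strain at postnatal day 30, an age at which this tooth is still growing, as it does throughout life in mice. The labels give the tissue as dental pulp and the cells as dental progenitors, negative in the sort for CD45, Ter119 and Tie2. Both groups carried 2 floxed Ptip alleles (Ptipf/f in the labels). The 2 controls had no Cre, and the 2 conditional knockouts had Sp7-cre (Ptipf/f;Sp7-cre), in which the promoter of Sp7, a transcription factor of the bone and odontoblast lineages, drives the recombinase. Loss of Ptip and presence of Cre therefore differ between the same libraries. The Cre is meant to remove Ptip in cells that have had Sp7 active, and where it acted was not tested here. Nothing in the labels says whether the libraries of a group came from separate animals, so p-values measure the spread between these libraries, which may be technical.

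Guidance molecules were first found to steer growing axons, and the same genes guide blood vessels, migrating mesenchymal cells and bone-forming cells. Semaphorins bind plexins, most of the secreted class 3 forms through a neuropilin co-receptor. Slits bind Robo receptors, and netrins bind Dcc, which mediates attraction, or Unc5 receptors, which mediate repulsion. Ephrins are ligands held at the cell surface. They bind Eph receptor tyrosine kinases on neighbouring cells and can signal back into the cell that carries them. In the tooth, Sema3a from the mesenchyme is known for timing the entry of trigeminal axons into the pulp.

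Totals were 15154246 to 19142757 counts per library. Paxip1, the symbol of Ptip, stood at 28.3 and 44.3 CPM (counts scaled by library size, here TMM-adjusted) in controls 1 and 2 and at 5.69 and 3.98 CPM in knockouts 1 and 2, which is the direction the labels give (log2 fold change -2.91, SE 0.48, adjusted p = 0.150 in edgeR's quasi-likelihood test). Marker genes of other cells differed between the libraries. The 8 leukocyte markers summed to 5070 and 1540 CPM in controls 1 and 2 and to 817 and 200 CPM in knockouts 1 and 2, with Ptprc, the gene of the sorted-out CD45, at 140 and 144 against 39.2 and 9.25 CPM. Endothelial markers summed to 720 and 1180 CPM in the controls and 621 and 572 CPM in the knockouts, with Tek, the gene of Tie2, at 21.7 to 81.2 CPM. Schwann cell markers summed to 376 and 532 against 120 and 143 CPM, and dental mesenchyme markers to 902 and 1110 against 3580 and 3120 CPM. Osteoblast and odontoblast markers overlapped between the groups (18400 and 41100 against 15400 and 26300 CPM). Of these 7 genes, 3 had positive and 4 negative fold changes. Sp7 itself stood at 43.9 and 60.7 against 131 and 146 CPM, and Dspp at 26.2 and 244 against 23.5 and 0.729 CPM. Dental epithelium markers, which include the enamel matrix genes Amelx and Ambn, summed to 20900 to 60600 CPM and were highest in control 1. Most of that sum was Ambn (52600 and 18200 against 31000 and 41100 CPM). In this list of 7 genes, 6 had negative fold changes (median log2 fold change -0.74). For 4 of them both knockouts were below both controls (57.1%, against 24.9% of all tested genes). Of the 8 neuron markers, 5 were at 0 in at least 1 library, among them Elavl4 and Snap25. In such bulk libraries, fewer cells of a type and less RNA per cell cannot be told apart, and the part of cell composition in the results below was not tested. Sex-linked genes also differed within both groups: Xist stood at 58.3 and 211 CPM in the controls and at 116 and 5.83 CPM in the knockouts. Ddx3y (43.1 and 8.85 against 2.0 and 117 CPM) and Uty (13.2 and 2.93 against 0.256 and 31.7 CPM) ran the other way within each group. Fits that leave out a library change this makeup too, and its part in the results below was not tested.

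**Figure D1:**
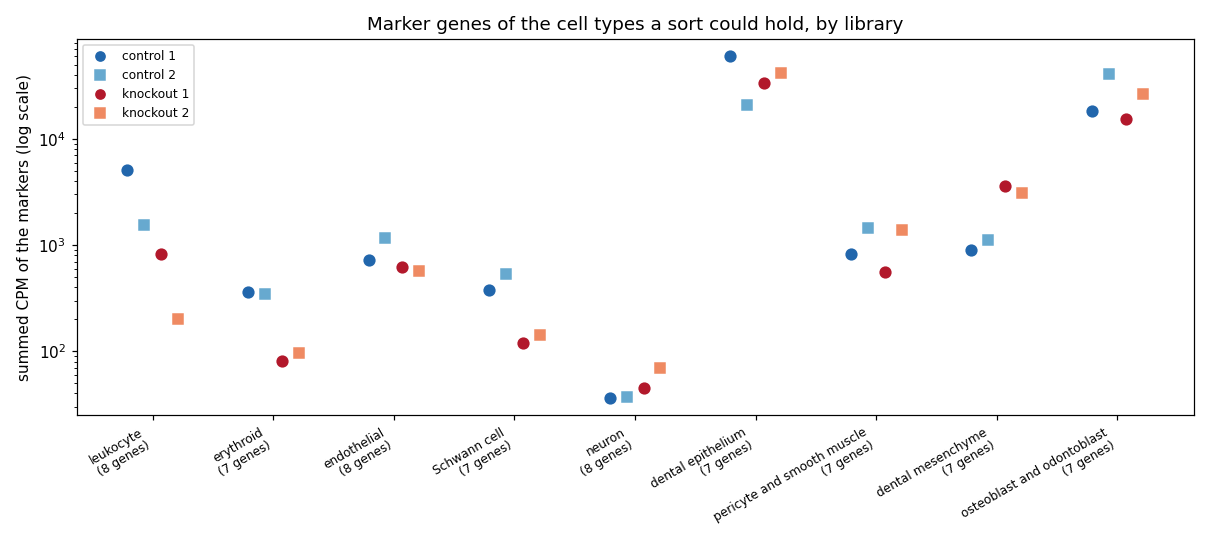
Summed CPM (y axis, log scale) of 9 lists of marker genes (x axis, number of genes in brackets) in each library. Leukocyte, erythroid, endothelial and Schwann cell markers were lower, and dental mesenchyme markers higher, in both knockouts (red and orange) than in both controls (blue).

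Levels differed widely among the guidance genes. On a scale that divides counts by the exon length of each gene (TPM), Efna1, an ephrin-A ligand, was the most abundant of the 69, at 151 and 257 TPM in the controls and 395 and 344 TPM in the knockouts. Next by their means over the 4 libraries came Sema3b (76.7 TPM), Ephb4 (58.4 TPM), Efnb3 (49.2 TPM), Efna5 (48.9 TPM) and Efna2 (40.1 TPM). The spreads of these 5 genes across libraries overlap, so their order among themselves is not fixed by these data. Summed over the 8 genes of the family, ephrins took 241 and 406 TPM in controls 1 and 2 and 678 and 632 TPM in knockouts 1 and 2, the only family of the 6 whose sums did not overlap between the groups. The 20 semaphorins summed to 179 and 243 TPM in the controls and 169 and 276 TPM in the knockouts, and the 14 Eph receptors to 121 and 226 against 154 and 203 TPM. Plexins and neuropilins summed to 79.8 and 151 against 79.0 and 106 TPM. Slits and Robos (38.6 to 66.8 TPM) and the netrin family with its receptors (20.0 to 35.5 TPM) were the least abundant. In each of the 6 families, control 1 summed to less than control 2.

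**Figure D2:**
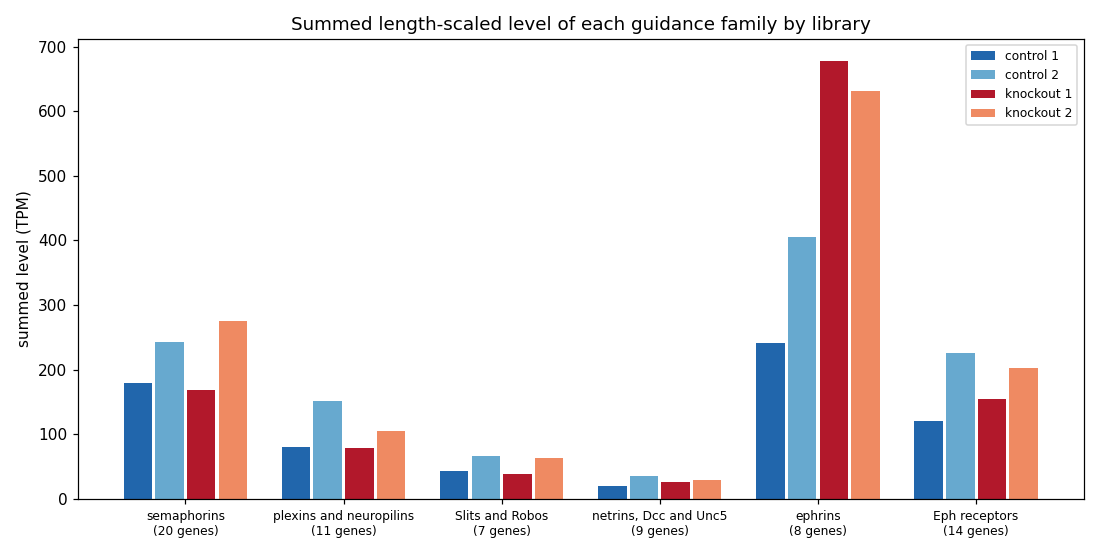
Summed length-scaled level (y axis, TPM) of each guidance family (x axis, number of genes in brackets), with 1 bar per library and no error bar. The ephrin bars of knockouts 1 and 2 (678 and 632 TPM) stand above those of controls 1 and 2 (241 and 406 TPM).

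For the genotype comparison, edgeR fitted all 17128 tested genes, and no member passed an adjusted p of 0.05 in either direction. The background was the same, with 0.0% of all tested genes called higher and 0.0% called lower. At an unadjusted p under 0.05 there were 7 members higher in the knockout (11.3% of 62, against 7.32% of all tested genes) and 9 lower (14.5%, against 9.89%). DESeq2, run as an alternative, called 2 members higher (background 2.72%) and 5 lower (background 5.69%). The 2 were Sema3e and Efna5, and the 5 were Slit1, Sema4b, Sema3c, Epha2 and Ntn1. A gene is called separated here when its knockout values lie both above, or both below, its 2 control values. By that measure 25 members were separated with the knockouts above (40.3%, against 25.8% of all tested genes) and 17 with the knockouts below (27.4%, against 24.9%). Among ligands these counts were 16 and 9 of 34, and among receptors 9 and 8 of 28. The median log2 fold change was 0.29 over the tested members and 0.00 over all tested genes. Leaving out control 2 raised the members' median to 0.67, and leaving out control 1 or knockout 2 brought it to 0.07 or 0.06.

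Libraries of 1 genotype also differed for these genes. Of the 62 tested members, 44 (71.0%) were higher in control 2 than in control 1, against 51.3% of all tested genes, and 41 (66.1%) were higher in knockout 2 than in knockout 1, against 44.9%. The median absolute log2 difference was 0.70 between the controls and 0.40 between the knockouts, beside 0.83 between the group means. Over all tested genes these medians were 0.58, 0.46 and 0.55. Control 1 was also the library with the highest leukocyte and dental epithelium marker sums.

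**Figure D3:**
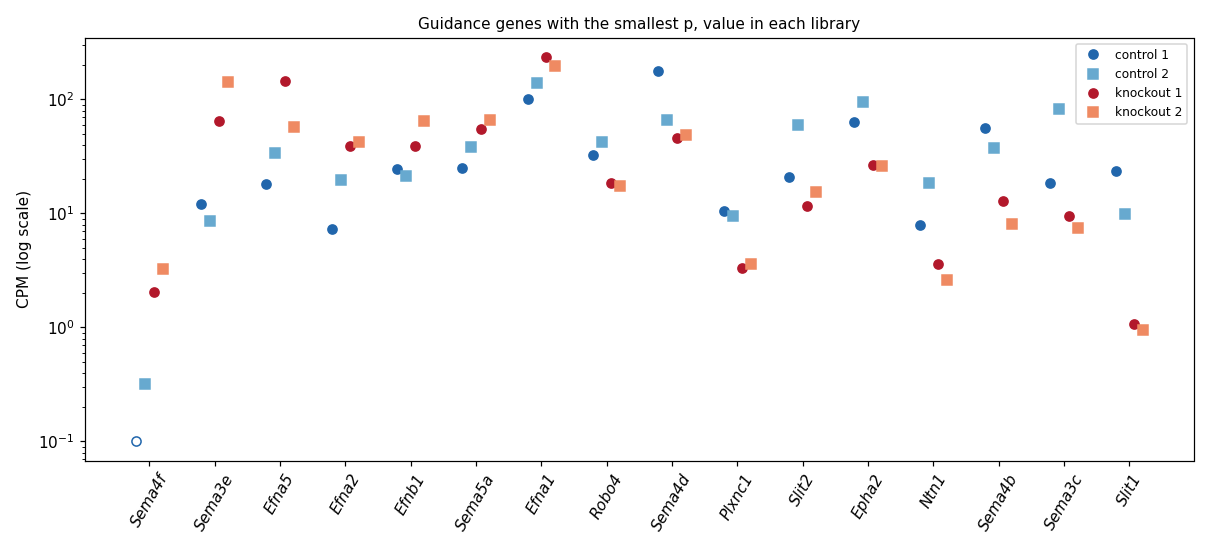
CPM (y axis, log scale) in each library of the 16 members with an unadjusted p under 0.05, ordered by fold change (x axis). An open symbol marks a count of 0, drawn at 0.1. In all 16 genes the 2 knockouts lie on one side of the 2 controls. Picking genes by p from these same values favours such separation, so it is no further support.

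Among the 19 tested semaphorins 7 were separated with the knockouts above and 4 with the knockouts below. These shares of 36.8% and 21.1% lie near those of all tested genes (25.8% and 24.9%). Fold changes were positive for 10 and negative for 9 (median log2 fold change 0.23, and 0.73 without control 2 and 0.02 without knockout 2). Sema3e had the smallest p of all members. This class 3 ligand is unusual in binding plexin D1 directly, without a neuropilin, and is known for repelling blood vessels. Sema3e stood at 12 and 8.66 CPM in controls 1 and 2 and at 65.3 and 142 CPM in knockouts 1 and 2. Either knockout was thus many times above either control, with a fitted log2 fold change of 3.33 (SE 0.51). Adjusted p-values were 0.145 in edgeR, 1.5e-07 in DESeq2 and 0.0532 with the replicate block, and 0.0257 in edgeR without knockout 1. Over the fits that leave out a library its log2 fold change spanned 2.66 to 3.78. Plxnd1, its receptor gene, stood at 40.7 and 39.6 CPM in the controls and 28.2 and 33.1 CPM in the knockouts.

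The class 3 ligand Sema3c, which acts through neuropilins and is known from the outflow tract of the heart, went the other way. It stood at 18.4 and 82.0 CPM in the controls and at 9.58 and 7.45 CPM in the knockouts. The knockouts were the lower pair, but the controls themselves lay 4.45-fold apart. The fitted difference was 5.89-fold (log2 fold change -2.56, SE 0.71, adjusted p = 0.176 in edgeR and 0.00225 in DESeq2), and -1.17 without control 2. The gene lies on chromosome 5 of GRCm38 (17574281 to 17730268, plus strand), as does Sema3e (14025276 to 14256689, plus strand). Sema3a, whose gene ends 422711 bp before the start of Sema3e, stood at 11.5 and 12.9 CPM in the controls and 9.79 and 12.9 CPM in the knockouts. The groups overlapped for Sema3a, with a log2 fold change of -0.10 (SE 0.47, adjusted p = 0.945), which turned to 0.09 without knockout 1. Sema3d, the next gene on that chromosome, also overlapped (8.62 and 15.2 against 12.4 and 3.08 CPM).

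Among the other class 3 genes, Sema3b was the semaphorin with the highest mean length-scaled level over the 4 libraries, although Sema4d was above it in control 1 (64.1 against 39.9 TPM). It stood at 69.4 and 118 CPM in the controls against 94.9 and 183 CPM, so the groups overlapped. Sema3f, a neuropilin-2 ligand, overlapped as well (4.45 and 8.34 against 6.20 and 4.26 CPM), and its log2 fold change of -0.29 became 0.18 without control 2. Sema3g ranged from 2.16 to 4.52 CPM over the 4 libraries.

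Class 4 semaphorins are membrane proteins that bind mainly B-type plexins. Sema4b stood at 56.7 and 37.3 CPM in the controls and 12.8 and 8.01 CPM in the knockouts, so the knockouts were lower without overlap. The difference was 4.51-fold (log2 fold change -2.17, SE 0.45, adjusted p = 0.152 in edgeR and 0.000877 in DESeq2). Sema4d, known as CD100, is a product of lymphocytes and osteoclasts that restrains osteoblasts through plexin B1. It stood at 179 and 65.7 CPM in the controls and 46.4 and 49.0 CPM in the knockouts, 2.57-fold lower by the fit (log2 fold change -1.36, SE 0.50, adjusted p = 0.242). Control 1 was far above the other 3 libraries, and was also the library with the highest leukocyte marker sum (5070 CPM). The part of leukocytes in the level of Sema4d was not tested. Without control 1 the log2 fold change of Sema4d was -0.50. Sema4f, counted at 0 and 0.318 CPM in the controls (0 and 5 counts) and 2.05 and 3.25 CPM in the knockouts, was higher in the knockouts but rests on few counts (adjusted p = 0.248). Sema4c (8.90 and 9.36 against 12.3 and 18.2 CPM, adjusted p = 0.491) and Sema4g (0, 2.35, 4.10 and 3.36 CPM) were also separated upward, and Sema4a overlapped.

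In classes 5 to 7, 3 of 6 tested genes were separated with the knockouts above and 1 with the knockouts below. These shares are 50.0% and 16.7%, against 25.8% and 24.9% of all tested genes. Sema5a, a ligand with thrombospondin repeats, stood at 24.9 and 38.2 CPM in the controls and at 55.3 and 66.7 CPM in the knockouts, 1.93-fold higher (log2 fold change 0.95, SE 0.38, adjusted p = 0.273). The other 2 higher genes, Sema6b and Sema6c, had 12.8 CPM or less in every library, and the lower one, Sema7a, a ligand anchored by a lipid that binds plexin C1 and integrins, had 6.56 CPM or less. Sema6a and Sema6d overlapped between the groups, and Sema5b was not tested (38, 3, 1 and 0 counts in controls 1 and 2 and knockouts 1 and 2).

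The start regions of members that passed in DESeq2 are shown because they include opposite directions within the semaphorins and among ephrins and their receptors. RefSeq gives promoter sequence on GRCm38.p6 for 59 of the 69 members. There was no entry for Dcc, Efnb3, Ntn1, Plxna1, Plxna4, Sema3b, Sema3f, Sema6a, Slit1 and Unc5d. For 4 of the 7 genes the table has a start within 30 bases of the 5′ end of the gene in GENCODE M21. Their 250 bases before the start are given 5′ to 3′ on the strand of the gene, with capitals for GC boxes (GGGCGG or its complement CCGCCC), which bind SP family factors. Sema3e and Efna5 had a higher level in the knockouts, Sema4b and Epha2 a lower one.
Sema3e, chr5:14025026-14025275, plus strand: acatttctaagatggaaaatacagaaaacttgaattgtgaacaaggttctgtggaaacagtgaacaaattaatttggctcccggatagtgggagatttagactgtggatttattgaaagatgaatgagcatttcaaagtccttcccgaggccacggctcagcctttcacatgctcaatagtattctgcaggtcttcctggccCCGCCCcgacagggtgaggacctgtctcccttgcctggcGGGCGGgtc
Efna5, chr17:62881318-62881567, minus strand: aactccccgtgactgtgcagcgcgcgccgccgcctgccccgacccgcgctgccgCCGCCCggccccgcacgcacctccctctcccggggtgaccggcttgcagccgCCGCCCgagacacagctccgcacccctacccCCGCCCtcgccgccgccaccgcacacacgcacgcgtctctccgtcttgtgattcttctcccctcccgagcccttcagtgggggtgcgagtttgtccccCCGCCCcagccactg
Sema4b, chr7:80186620-80186869, plus strand: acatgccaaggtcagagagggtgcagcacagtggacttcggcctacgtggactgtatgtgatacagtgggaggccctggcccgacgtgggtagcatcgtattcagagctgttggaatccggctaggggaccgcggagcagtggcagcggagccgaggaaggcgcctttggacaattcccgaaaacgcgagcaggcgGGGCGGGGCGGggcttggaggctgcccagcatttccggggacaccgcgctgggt
Epha2, chr4:141300971-141301220, plus strand: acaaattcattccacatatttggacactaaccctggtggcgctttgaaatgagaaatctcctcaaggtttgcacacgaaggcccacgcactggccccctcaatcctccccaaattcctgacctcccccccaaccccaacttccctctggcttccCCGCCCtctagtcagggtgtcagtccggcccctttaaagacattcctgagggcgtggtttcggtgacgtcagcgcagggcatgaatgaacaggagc
The Sema3e window held 2 GC boxes, 7 CpG dinucleotides and 48.0% G or C. That of Efna5 held 4 GC boxes, 32 CpG and 74.8% G or C, that of Sema4b 2 GC boxes that share a base, 20 CpG and 64.4%, and that of Epha2 1 GC box, 9 CpG and 55.6%. The windows richest and poorest in CpG thus both belong to genes that were higher in the knockouts. The genes themselves span 62604184 to 62881317 on chromosome 17 (Efna5), 80186841 to 80226527 on chromosome 7 (Sema4b) and 141301240 to 141329384 on chromosome 4 (Epha2) of GRCm38. A GC box was present in 69.6% of the 69 windows listed for tested members, some of which have several starts, against 54.5% of 15233 windows of all tested genes and 32.7% of all 32851 windows in the table. The core motif of the TCF and LEF factors that act in the Wnt pathway (CTTTGAT on either strand) was in none of the 4 printed windows. Among the members it was found in Nrp2 alone, and 2.37% of the windows of tested genes hold it. A TATA box (TATAAA on either strand) was found in the windows of Efnb2 and Slit2, against 6.97% of the windows of tested genes. A match is a run of letters, not a site that was shown to be bound.

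Plexins and neuropilins are the semaphorin receptors. Of 11 genes, all tested, 9 had negative fold changes, 5 were separated with the knockouts below and 0 with them above (background 24.9% and 25.8%). Their median log2 fold change was -0.39, and -0.11 without control 2. Plxnc1, the receptor of Sema7a, stood at 10.6 and 9.48 CPM in the controls and 3.33 and 3.64 CPM in the knockouts. Both pairs of libraries lay close together, and the level was 2.87-fold lower (log2 fold change -1.52, SE 0.57, adjusted p = 0.242). Plxna4, a class 3 semaphorin receptor of sensory axons, stood at 4.03 and 2.80 CPM against 0.666 and 0.841 CPM, also without overlap (4.50-fold lower, adjusted p = 0.291). Plxna1 stood at 13.8 and 12 against 6.51 and 10 CPM (adjusted p = 0.577).

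Nrp1, the co-receptor of Sema3a and of VEGF, showed how much a single library weighs here. It stood at 60.2 and 156 CPM in the controls and at 57.2 and 57.8 CPM in the knockouts. Control 2 was far above the other 3 libraries, which were nearly equal, and the log2 fold change of -0.91 (SE 0.48, adjusted p = 0.399) was -0.11 without it. Nrp2 overlapped (40.7 and 81.8 against 56.2 and 56.2 CPM), and changed sign to 0.41 without control 2. Control 2 also had the highest marker sums of endothelial cells (1180 CPM) and Schwann cells (532 CPM). The same held for osteoblasts and odontoblasts (41100 CPM). For pericytes and smooth muscle, control 2 (1440 CPM) was close to knockout 2 (1390 CPM). The part of any of these cells was not tested. The B-type plexins Plxnb1 (6.26 and 10.5 against 8.35 and 13.7 CPM) and Plxnb2 (69.6 and 72.9 against 60.1 and 99.2 CPM) overlapped, and the direction of Plxnb2 turned to -0.25 without knockout 2. Plxna2 (10.3 to 31.4 CPM), Plxna3 (2.58 to 4.66 CPM) and the X-linked Plxnb3, at 0, 8.40, 0.974 and 1.85 CPM, overlapped too.

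**Figure D4:**
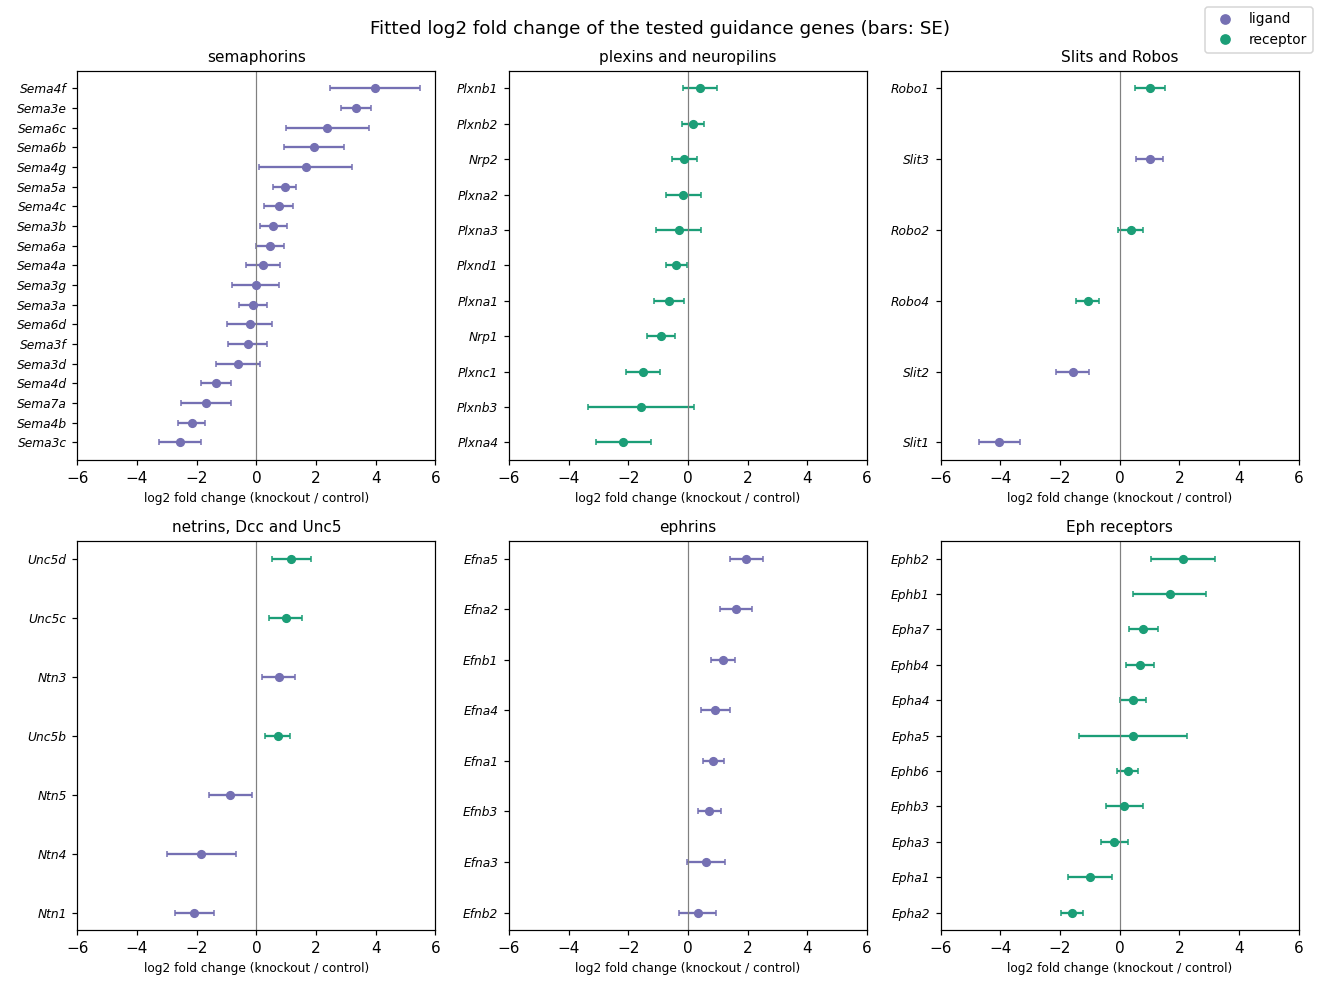
Fitted log2 fold change (x axis, knockout over control, bars are SE) of the 62 tested members by family, with ligands in purple and receptors in green. All 8 ephrins lie right of 0, 9 of 11 plexins and neuropilins lie left of it, and the Slits split between 1.01 (Slit3) and -4.03 (Slit1).

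Slits and Robos split, with the knockouts above in 3 of the 6 tested genes and below in the other 3, none overlapping (50.0% each, against 25.8% and 24.9% of all tested genes). Slit1, a secreted repellent best known from the brain, stood at 23.5 and 9.93 CPM in controls 1 and 2 and at 1.08 and 0.953 CPM in knockouts 1 and 2. It was detected in every library (338, 156, 21 and 17 counts), and the knockouts were at about the same low level. The fitted difference was 16.4-fold (log2 fold change -4.03, SE 0.69, adjusted p = 0.150 in edgeR, 3.0e-06 in DESeq2 and 0.0544 with the replicate block). Over the fits that leave out a library it stayed between -4.57 and -3.32. The gene lies on chromosome 19 of GRCm38 from 41600257 to 41743665 on the minus strand.

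Slit2 and Slit3, which are expressed in mesenchyme of many organs, differed in direction. Slit2 stood at 21.1 and 59.8 CPM in the controls and at 11.7 and 15.5 CPM in the knockouts (2.98-fold lower, log2 fold change -1.57, SE 0.56, adjusted p = 0.230), and its log2 fold change was -0.68 without control 2. Slit3, known from bone as a product of osteoblasts and osteoclasts, stood at 19.1 and 28.9 CPM against 33.4 and 63.4 CPM (log2 fold change 1.01, SE 0.46, adjusted p = 0.324). Both ligands were without overlap between the groups, each in its own direction. On the length-scaled scale, Slit3 (8.65 to 33.6 TPM) was above both Slit1 (0.517 to 10.9 TPM) and Slit2 (1.41 to 7.92 TPM) in each library except control 1, where Slit1 was the highest of them.

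Robo1 and Robo2 are receptors of these ligands. Robo1 stood at 19.4 and 30.9 CPM in the controls and 32.3 and 70.1 CPM in the knockouts, and Robo2 at 11.5 and 15.5 against 16.7 and 18.3 CPM (adjusted p = 0.355 and 0.729). The gap between control 2 and knockout 1 was small for both genes, and the log2 fold change of Robo1, 1.02, was 0.36 without knockout 2. Robo4, a receptor largely restricted to endothelial cells, stood at 32.8 and 42.5 CPM in the controls and 18.5 and 17.4 CPM in the knockouts (2.10-fold lower, log2 fold change -1.07, SE 0.38, adjusted p = 0.229). The endothelial gene Pecam1 stood at 305 and 399 CPM in the controls and 182 and 166 CPM in the knockouts, a log2 fold change of -1.02. That was the lowest value of the 8 endothelial markers, which ranged up to -0.25 with a median of -0.56. Of the 8, 4 were separated downward (50.0%, against 24.9% of all tested genes) and 4 overlapped. The part of endothelial cells in the level of Robo4 was not tested. Robo3, whose gene lies 554 bp from Robo4 on chromosome 9, was not tested (6, 26, 5 and 0 counts).

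In the netrin family, none of the 7 tested genes overlapped between the groups. The knockouts were above in 4 (57.1%, against 25.8% of all tested genes), which were Ntn3 and the 3 tested Unc5 genes, and below in the other 3 netrins (42.9%, against 24.9%). Over the 7 the median log2 fold change was 0.71, and 0.42 without control 1. Ntn1, a secreted attractant that also acts in the branching of epithelia and vessels, stood at 7.93 and 18.6 CPM in the controls and at 3.64 and 2.63 CPM in the knockouts. That is 4.22-fold lower (log2 fold change -2.08, SE 0.65, adjusted p = 0.195 in edgeR and 0.0347 in DESeq2), and -1.39 without control 2. Ntn4, a netrin of basement membranes, had 1.32 CPM or less in every library. Ntn5 stood at 5.28 and 4.14 against 2.92 and 2.24 CPM (adjusted p = 0.613), but 23.4% of its exon length is shared with Sec1 on the opposite strand, and these counts may not separate the genes. Ntn3 was the higher one (4.66 and 6.75 against 8.76 and 10.3 CPM).

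Dcc, the receptor for attraction by netrin 1, was barely detected, with 0, 5, 5 and 4 counts in controls 1 and 2 and knockouts 1 and 2, and was not tested. At this depth the upper limit that a count of 0 allows (3 counts) is 0.154 to 0.209 CPM, for counting error only. Unc5b, a repulsive netrin receptor also found on vessels, stood at 10.9 and 10.2 CPM in the controls and 17.0 and 17.6 CPM in the knockouts. The libraries of each group lay close together, and the 1.64-fold difference had an adjusted p of 0.466. Unc5c (5.91 and 15.3 against 20.7 and 21 CPM) and Unc5d (3.13 and 9.10 against 11.3 and 16.4 CPM) were also separated upward, with adjusted p of 0.431 and 0.418. Unc5a was not tested, with 45 of its 52 counts in control 2.

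Among ephrins all 8 genes were tested, all 8 had positive fold changes, and 7 were separated with the knockouts above (87.5%, against 25.8% of all tested genes). The family's median log2 fold change was 0.88, and 0.81 to 1.04 with any of the 4 libraries left out. None of them passed in edgeR, where 4 had an unadjusted p under 0.05 (background 7.32%), and Efna5 passed in DESeq2. The marker sum of dental mesenchyme was higher in the same libraries (902 and 1110 against 3580 and 3120 CPM), and its part in the ephrin levels was not tested.

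Efna5, a lipid-anchored ephrin with wide binding to EphA receptors, had the smallest p of them. It stood at 18 and 33.7 CPM in the controls and at 144 and 57.6 CPM in the knockouts. Knockout 1 was well above knockout 2, and both were above the controls (3.89-fold, log2 fold change 1.96, SE 0.55, adjusted p = 0.176 in edgeR and 0.00832 in DESeq2). Without knockout 1 the log2 fold change was 1.15. Efna2 stood at 7.30 and 19.5 CPM against 39.3 and 42.4 CPM, 3.04-fold higher (log2 fold change 1.60, SE 0.53, adjusted p = 0.212). Its log2 fold change was 1.03 without control 1 and 2.43 without control 2. Efna1, a vascular and epithelial ligand of EphA2, stood at 101 and 140 against 236 and 196 CPM (1.80-fold, log2 fold change 0.85, SE 0.34, adjusted p = 0.276).

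Efna1, Efna3 and Efna4 lie side by side on chromosome 3 of GRCm38, with gaps of 32757 bp between Efna1 and Efna3 and 10425 bp between Efna3 and Efna4. Their log2 fold changes were 0.85, 0.60 and 0.92, and each was separated upward. Efna3 (3.20 and 5.03 against 5.74 and 6.78 CPM) and Efna4 (7.30 and 5.79 against 11.8 and 12.9 CPM) share 14.1% and 10.5% of their exon length with annotated antisense transcripts, and the library kit does not mark strand.

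B-type ephrins are transmembrane proteins. Efnb1, the X-linked gene whose loss disturbs craniofacial form, stood at 24.7 and 21.3 CPM in the controls and 38.9 and 64.6 CPM in the knockouts. It was 2.25-fold higher (log2 fold change 1.17, SE 0.41, adjusted p = 0.221). Efnb3 stood at 35.3 and 40.5 against 49.1 and 75.5 CPM (adjusted p = 0.392). Efnb2, the arterial ephrin and ligand of EphB4, was the one ephrin whose groups overlapped, at 4.94 and 15.5 CPM in the controls and 12 and 13.5 CPM in the knockouts. Its log2 fold change of 0.32 turned to -0.32 without control 1.

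Of 11 tested Eph receptors, 8 had positive fold changes and 3 negative ones. In this family 4 were separated upward and 2 downward (36.4% and 18.2%, against 25.8% and 24.9% of all tested genes), and 5 overlapped. At the median the log2 fold change was 0.45, and 0.13 without knockout 2. Epha2, a receptor for ephrin A1 in epithelia and vessels, was the one with the smallest p. It stood at 63.5 and 94.8 CPM in the controls and at 26.4 and 26.1 CPM in the knockouts. The knockouts were nearly equal and both far below the controls, 3.02-fold by the fit (log2 fold change -1.59, SE 0.37, adjusted p = 0.163 in edgeR and 0.00943 in DESeq2). Over the fits that leave out a library this was -1.89 to -1.32. Its ligand gene Efna1 was higher in the same 2 libraries, as given above.

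Other EphA receptors had smaller differences. Epha3 overlapped (49.6 and 95.0 against 78.9 and 48.4 CPM). Epha4 stood at 13.0 and 12.7 against 20.2 and 15.0 CPM (adjusted p = 0.659). Epha7 stood at 20.0 and 47.9 against 69.4 and 48.8 CPM (adjusted p = 0.473), with a log2 fold change of 0.80, and 1.51 without control 2. For Epha7, control 2 and knockout 2 were almost equal, so the 2 groups are separate by a narrow gap alone. Epha1 was lower (3.96 and 5.60 against 2.72 and 2.13 CPM). Epha6, Epha8 and Epha10 had 4 counts or fewer in each library and were not tested, and Epha5 had 15 or fewer.

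Among EphB receptors all 5 had positive fold changes, and 2 were separated with the knockouts above (40.0%, against 25.8% of all tested genes). Ephb4, the venous receptor of ephrin B2, had the highest mean length-scaled level of the Eph genes over the 4 libraries. In both controls Epha2 was above it (37.3 and 68.3 against 27.7 and 61.1 TPM). Ephb4 overlapped, at 46.9 and 84.2 CPM in the controls and 68.6 and 144 CPM in the knockouts (log2 fold change 0.69, SE 0.48, adjusted p = 0.526), and its log2 fold change was 0.06 without knockout 2. Ephb2 stood at 0.278 and 0.764 against 1.95 and 2.69 CPM, which is 4 and 12 counts against 38 and 48 (log2 fold change 2.13, SE 1.08, adjusted p = 0.373), and 1.56 without control 1 and 2.98 without control 2. Ephb6, whose kinase domain is inactive, was nearly even (34.7 and 31.3 against 35.3 and 44.4 CPM). Ephb3 overlapped (4.66 and 7.70 against 5.28 and 8.52 CPM), and its direction turned without control 1 (-0.19) and without knockout 2 (-0.23). Ephb1 overlapped at 0.209 to 3.59 CPM.

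Some ligands can be set beside a receptor known to bind them, in pairs picked by hand. In some of these the values had opposite signs. The log2 fold change was 3.33 for Sema3e and -0.39 for Plxnd1, 0.85 for Efna1 and -1.59 for Epha2, and -2.08 for Ntn1 and 0.71 for Unc5b. Signs also differed for Sema4d (-1.36) and Plxnb1 (0.40), and for Slit2 (-1.57) and Robo1 (1.02). In the other pairs both values had the same sign. They were -2.56 for Sema3c and -0.91 for Nrp1, 1.01 for Slit3 and 0.37 for Robo2, and 1.17 for Efnb1 and 2.13 for Ephb2. The same held for Efna5 (1.96) and Epha7 (0.80), and for Efnb2 (0.32) and Ephb4 (0.69). Some values were near or below their SE, as for Plxnd1 (SE 0.35) and Robo2 (SE 0.43). None of these genes passed in edgeR, and no test was made of the differences between genes. On the length-scaled scale, Plxnd1 was above Sema3e in both controls (15.3 and 18.3 against 3.55 and 3.14 TPM) and below it in both knockouts (11.8 and 14.6 against 21.5 and 49.3 TPM). Efna1 was above Epha2 in each library.

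**Figure D5:**
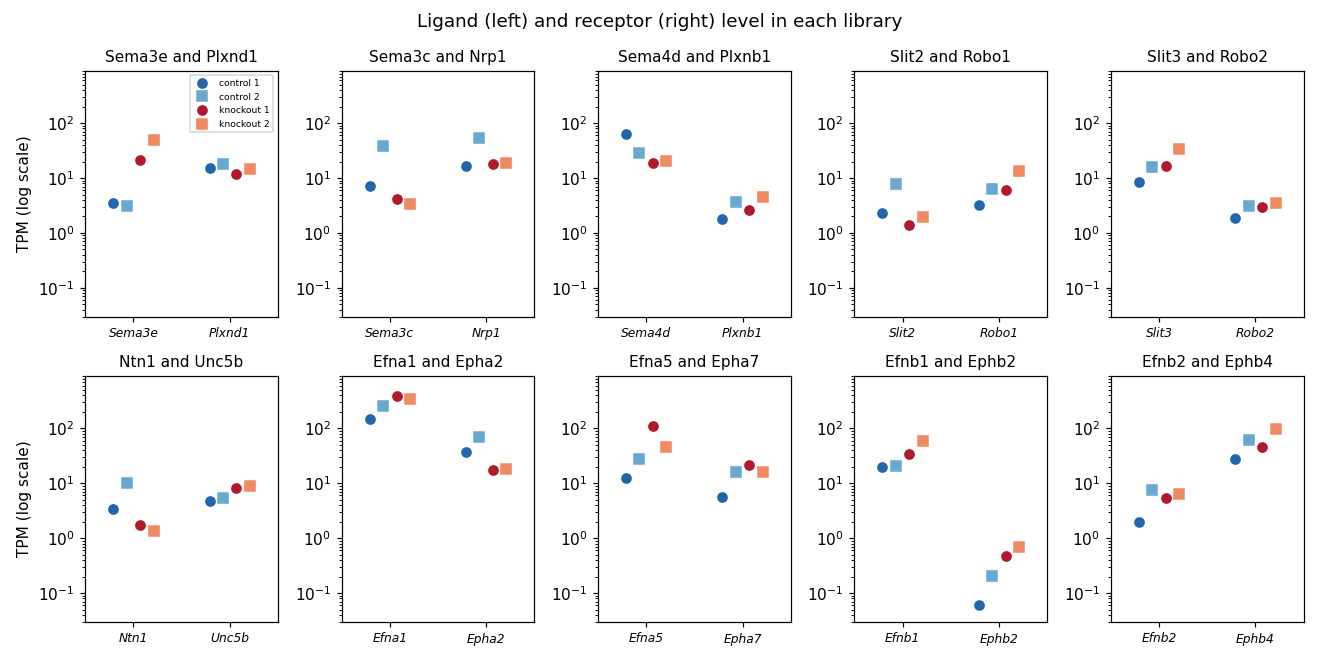
Length-scaled level (y axis, TPM, log scale) of a ligand gene (left) and a receptor gene it is known to bind (right) in each library, for 10 pairs. Sema3e lies below Plxnd1 in the controls and above it in the knockouts, whereas Efna1 lies above Epha2 in each library.

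Genes that act with or below these receptors were counted from fixed lists. Of 31 intracellular effectors, all tested, 11 were separated upward and 7 downward (35.5% and 22.6%, against 25.8% and 24.9%). None passed in edgeR. At an unadjusted p under 0.05, 5 were higher and 3 lower (16.1% and 9.68%, against 7.32% and 9.89% of all tested genes). DESeq2 called 2 higher and 2 lower (background 2.72% and 5.69%). The list's median log2 fold change was 0.31. The collapsin response mediators, which carry semaphorin 3A signals to microtubules, differed in direction. Dpysl3 stood at 44.6 and 73.4 CPM in the controls and 190 and 353 CPM in the knockouts (log2 fold change 2.20, adjusted p = 0.152 in edgeR and 0.000322 in DESeq2). Dpysl2 stood at 48.7 and 66.3 against 189 and 116 CPM (1.41, 0.176 and 0.0308). Dpysl4 and Dpysl5 were also separated upward, whereas Crmp1 was lower (1.95 and 6.68 against 0.769 and 0.729 CPM).

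The effectors lower in the knockout included Ablim1, an actin-binding protein with a relative in worm axon guidance, and Ngef, the exchange factor ephexin that EphA4 activates. Ablim1 stood at 437 and 277 CPM in the controls and 128 and 57.5 CPM in the knockouts (log2 fold change -1.94, adjusted p = 0.165 in edgeR and 0.00241 in DESeq2). Ngef stood at 13.6 and 18.8 against 5.54 and 2.07 CPM (-2.08, 0.194 and 0.0251). Without knockout 1 these log2 fold changes were -2.63 for Ablim1 and -2.96 for Ngef. Without knockout 2 they were -1.47 for Ablim1 and -1.55 for Ngef. Pak1, a kinase of actin remodelling downstream of Rac, was higher, at 51.6 and 54.4 against 102 and 118 CPM (adjusted p = 0.192 in edgeR).

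Of 22 further cues and co-receptors, 19 were tested, 3 were separated upward and 4 downward (15.8% and 21.1%, below the 25.8% and 24.9% of all tested genes), and 12 overlapped. The list's median log2 fold change was -0.24. Flrt3, a membrane protein that binds Unc5 and Robo1, stood at 74.6 and 72.3 CPM in the controls and 220 and 254 CPM in the knockouts (log2 fold change 1.69, adjusted p = 0.150 in edgeR and 0.00171 in DESeq2). The chemokine Cxcl12 stood at 482 and 1130 against 295 and 194 CPM, and its receptor gene Cxcr4, which leukocytes express, at 40.3 and 15.5 against 6.61 and 1.18 CPM. Both passed in DESeq2 (adjusted p = 0.00932 and 0.00403) and not in edgeR (0.179 and 0.197). The log2 fold change of Cxcl12, -1.72, was -1.04 without control 2, and that of Cxcr4, -2.83, was -2.05 without control 1 and -4.56 without knockout 1. Leukocyte marker sums followed the same order over the 4 libraries as Cxcr4, and so did Slit1, Sema4b and Ablim1. The part of leukocytes in any of these levels was not tested.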

How the data were processed

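Polyadenylated RNA of 4 libraries was analysed. The deposited values are raw counts per Ensembl gene, which the authors made with Trim Galore 0.6.6, Bowtie2 2.3.5.1 and featureCounts 2.0.1 on GRCm38, per the submitters' processing notes. For the annotation release, the strand setting and reads with several matches, nothing is given in the sources used here. Per the labels' protocols, cDNA was primed with oligo-dT, amplified and cut with a transposase kit, so strand is not marked.

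Gene IDs were matched to GENCODE M21 (55227 of 55487), which also gave exon lengths for TPM. Genotypes were compared by the quasi-likelihood test of edgeR 4.0.16 in R 4.3.3, two-sided, with filterByExpr, TMM scaling, genotype as the only term and Benjamini-Hochberg adjustment over 17128 genes at 0.05. The SE is the absolute log2 fold change divided by the square root of F. DESeq2 1.42.0, RLE scaling, no low-count filter, the replicate block and leaving out each library (on the same genes) were alternatives. Code was tested on simulated data. Non-overlap means both knockouts above, or both below, both controls.

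Genes given in full are the 2 members of each family with the highest mean TPM, those with an unadjusted p under 0.05, and a list of known tooth and bone genes. Values of a few others are given too, and the ligand and receptor pairs shown were picked by hand. Members and lists were chosen with earlier results of these data known.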

Additional observations from a re-analysis of the deposited data

How the results depend on the processing

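The replicate numbers of the titles name no pairing. Deviations of same-numbered libraries from their group means correlated at 0.145 over genes. With the replicate block, edgeR called 59 genes higher and 185 lower over the whole table and no member. In that fit 11 members were higher and 9 lower at an unadjusted p under 0.05. The share of all tested genes at that limit was not counted for it. DESeq2 called 472 genes higher and 989 lower, 2 members higher and 5 lower. Without the low-count filter, edgeR called 449 and 1005 genes and 3 and 6 members, but the estimated prior degrees of freedom were then infinite, so a gene's own spread did not enter its p. RLE scaling called none and moved the median of all genes by -0.0285 on the log2 scale. Leaving out 1 library gave 0 to 55 higher and 0 to 230 lower genes, the upper values without knockout 1, and 0 to 1 members higher (Sema3e). Members at an unadjusted p under 0.05 then numbered 3 to 13 higher and 5 to 9 lower. The median log2 fold change of the members ranged from 0.06 to 0.67, of semaphorins from 0.02 to 0.73, of Eph receptors from 0.13 to 0.52 and of netrins with their receptors from 0.42 to 0.73. A log2 fold change changed sign for 16 of the 62 tested members, among them the 9 genes Epha3, Epha5, Plxna2, Plxna3, Plxnb3, Sema3d, Sema3g, Sema4a and Sema6d. For the other 7 the values ranged over -0.32 to 1.32 for Efnb2, -0.23 to 0.52 for Ephb3, -0.71 to 0.18 for Sema3f, -0.58 to 0.41 for Nrp2, -0.32 to 0.09 for Sema3a, -0.25 to 0.48 for Plxnb2 and 0.00 to 0.78 for Plxnb1. The cause of these shifts was not tested. Depth limits Dcc, Sema4f, Ephb2 and the other members with few counts.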
